A study of Homo sapiens with 6 samples.

Results

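Neuroectoderm and neural crest genes were followed across clones of H9, an embryonic stem cell line of human origin, with 3 kinds of lentiviral vector. The members were 42 listed genes of the neural plate, forebrain, neurons and neural crest. Of these, 37 had a named row on the array, out of 14884 genes with a named row in all, and the 5 genes TFAP2A, TUBB3, FABP7, NR2F1 and NR2F2 were not analysed here for want of one. Gamma_ON clones carried H2A.X with the substitution S139E, in which glutamate replaces the serine that is phosphorylated at DNA breaks. Gamma_OFF clones had an H2A.X in which alanine stands at both sites, T136A and S139A, and cannot be phosphorylated there, and CTRL clones had the eGFP vector alone. All vectors drove their insert from the EF1α promoter and carried eGFP. Transduced cells were sorted for GFP and TRA 1-60, seeded singly on mouse embryonic fibroblast feeders and expanded from single colonies with bFGF at 8 ng/ml. Each group had 2 arrays, 1 per sample. The labels do not say whether the replicates of a vector were separate clones. The p-values below therefore reflect only how far these samples differed, which may be technical. An effect of a vector and a difference between clones thus cannot be told apart. A vector with unsubstituted H2A.X was used in 0 groups, so an effect of a substitution and one of added H2A.X cannot be told apart.

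Neuroectoderm is the part of the ectoderm that becomes brain and spinal cord, and human pluripotent cells turn towards it when BMP and Nodal signals are low. Transcription factors such as PAX6, SIX3, LHX2 and OTX2 mark its anterior end, SOX1 and ZIC1 mark neural plate cells, and nestin, encoded by NES, is the intermediate filament of neural progenitors. Neurons then make cytoskeletal and vesicle proteins such as MAP2, doublecortin and stathmin-2. At the border of the plate, TFAP2A, MSX1, MSX2, PAX3 and PAX7 precede SOX9 and SOX10, which mark neural crest, the source of peripheral neurons, glia and melanocytes. Several of these genes are also expressed outside the nervous system, among them OTX2 and POU3F1 in pluripotent cells and MSX1 and MSX2 in mesoderm and amnion.

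The start regions of 4 members are shown because their levels separated the groups in different ways: ZIC1 was called lower with both H2A.X vectors, PAX3 in gamma_OFF and SYT11 in gamma_ON against CTRL, and SP8 was called between the H2A.X vectors. Each window runs from 250 bases before to 50 bases after the start of the gene on its own strand (RefSeq, GRCh38.p14). Capitals mark CCAAT, the CCAAT box, and GGGCGG, the GC box, on either strand (ATTGG and CCGCCC on the other). No CCAAT box overlapped a GC box in these windows. The windows lie at chr3:147409115-147409414 (plus strand) for ZIC1, chr2:222298949-222299248 (minus strand) for PAX3, chr7:20786837-20787136 (minus strand) for SP8 and chr1:155859317-155859616 (plus strand) for SYT11.
ZIC1: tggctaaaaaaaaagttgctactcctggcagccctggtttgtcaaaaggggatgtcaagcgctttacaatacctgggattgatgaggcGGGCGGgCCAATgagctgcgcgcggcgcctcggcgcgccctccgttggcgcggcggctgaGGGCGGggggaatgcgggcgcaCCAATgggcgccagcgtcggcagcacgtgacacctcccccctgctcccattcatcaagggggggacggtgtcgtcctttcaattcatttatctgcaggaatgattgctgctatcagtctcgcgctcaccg
PAX3: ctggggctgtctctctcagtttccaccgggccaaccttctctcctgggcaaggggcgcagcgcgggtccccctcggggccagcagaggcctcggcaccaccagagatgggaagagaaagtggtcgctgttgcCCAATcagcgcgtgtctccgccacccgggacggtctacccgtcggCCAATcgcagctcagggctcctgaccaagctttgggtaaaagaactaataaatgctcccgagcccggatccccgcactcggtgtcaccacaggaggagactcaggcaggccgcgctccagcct
SP8: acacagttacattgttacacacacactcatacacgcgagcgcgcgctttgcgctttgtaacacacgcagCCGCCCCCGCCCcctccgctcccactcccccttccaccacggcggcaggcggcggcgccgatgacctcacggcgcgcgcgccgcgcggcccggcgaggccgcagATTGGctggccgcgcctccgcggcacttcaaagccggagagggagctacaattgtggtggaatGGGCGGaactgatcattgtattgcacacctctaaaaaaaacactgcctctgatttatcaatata
SYT11: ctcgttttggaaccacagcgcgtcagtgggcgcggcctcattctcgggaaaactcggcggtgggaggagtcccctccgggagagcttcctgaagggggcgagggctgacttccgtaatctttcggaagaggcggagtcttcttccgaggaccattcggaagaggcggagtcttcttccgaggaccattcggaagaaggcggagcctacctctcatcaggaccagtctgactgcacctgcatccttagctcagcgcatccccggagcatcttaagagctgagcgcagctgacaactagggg

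The ZIC1 window held 2 CCAAT boxes and 2 GC boxes, the PAX3 window 2 CCAAT boxes and 0 GC boxes, the SP8 window 1 CCAAT box and 3 GC boxes, and the SYT11 window 0 of each. Windows were given for 27 of the 37 measured members. A CCAAT box stood in a window of 21 of these 27 members (77.8%), against 39.7% of 27305 genes with a window. A GC box stood in 16 of the 27 (59.3%), against 48.3% of all genes with a window. The E-box CAGCTG stood in 6 of the 27 (22.2%) against 21.1%, the TATA box TATAAA, searched with its other strand TTTATA, in 2 (7.41%) against 13.99%, and the octamer ATGCAAAT, searched with its other strand ATTTGCAT, in 1 (NEUROG1) against 2.19%. A gene with several windows counted once if any held the letters. The 27305 genes with a window were not limited to the 14884 genes measured, nor matched to the members in kind of gene. These are matches of letters, and binding was not measured.

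The arrays gave log2 levels normalized by the submitters, with medians over all rows between 6.11 and 6.25. No detection calls were used, so it is not known which member rows lay above background, and levels are compared between arrays and never between genes. Gamma_OFF replicate 2 stood apart: its levels spread less over genes (SD 1.64, and 1.70 to 1.81 elsewhere), and its correlation with its own replicate was 0.986 across genes, against 0.994 for the gamma_ON and the CTRL pair. Pluripotency markers were measured for 11 of 12 listed genes, and their mean log2 level was 10.09 and 10.18 in gamma_ON, 9.98 on both gamma_OFF arrays, and 9.76 and 9.84 in CTRL. Of the 11, 2 were called higher in gamma_ON against CTRL (GDF3 and POU5F1) and 1 in gamma_OFF against CTRL (DNMT3B). By limma 0 were called lower with either vector, also 0 at an unadjusted p under 0.05. GDF3 weighed on the gamma_ON mean, with log2 levels of 9.05 and 8.73 in gamma_ON, 6.91 and 6.79 in gamma_OFF, and 7.05 and 6.77 in CTRL. Between the vectors the median log2 fold change of the 11 was -0.02, with 5 above 0 and 6 below. In such bulk samples, fewer cells of a type and less RNA per cell cannot be told apart.

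The comparison of gamma_ON with CTRL asked how levels with the phosphomimetic H2A.X vector differed from those with eGFP alone. SYT11, STMN2, EDNRB and ZIC1 fell, and 0 members rose. SYT11 and STMN2 encode neuronal proteins, EDNRB a receptor of the neural crest and ZIC1 a factor of the neural plate. Of the 37 members 10.8% were called lower, against 0.806% of all genes, and 0 were called higher, against 0.739% of all genes. The members were chosen with earlier results of these data known, so these shares and those below are no test of the list. The call required an adjusted p under 0.05 (limma, Benjamini-Hochberg over all 14884 genes, two-sided), which 1.55% of all genes passed. The median log2 fold change of the members was -0.16, against 0.02 over all genes, and 13 of 37 members were above 0, against 54.4% of all genes. At an unadjusted p under 0.05, 2 members were higher and 11 lower, 13 of 37 against 14.8% of all genes. The groups did not overlap for 8 members that were higher, against 30.0% of all genes, and for 19 that were lower, against 22.3%. The count of 4 called members was 1 when either CTRL array or either gamma_ON array was left out.

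**Figure D1:**
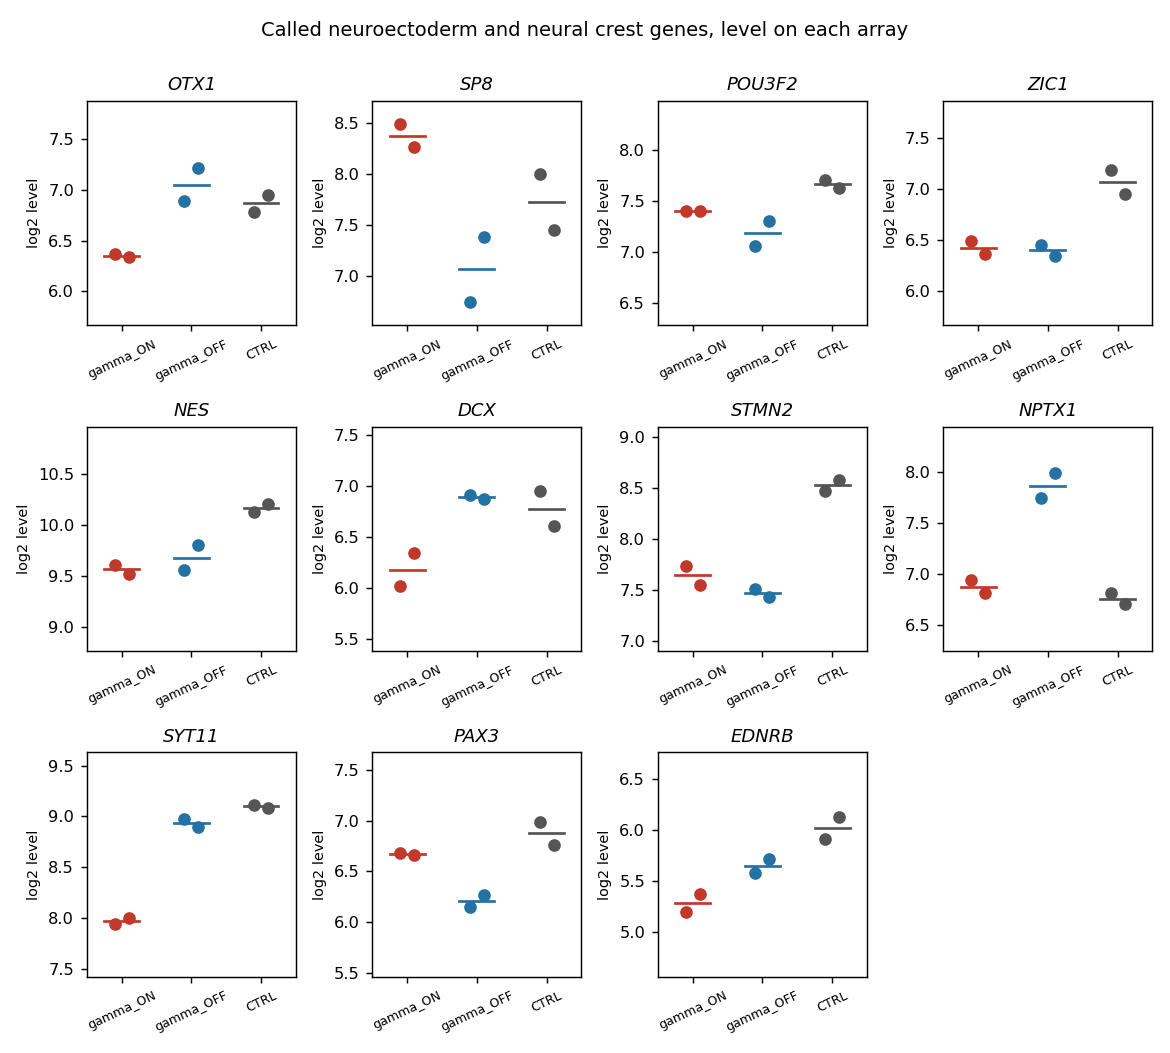
Log2 level of the 11 members called in at least 1 comparison, on each array. Each panel is a gene, with gamma_ON in red, gamma_OFF in blue and CTRL in grey; points are arrays (replicate 1 left, replicate 2 right), lines are means of 2 arrays, and every panel spans the same log2 range. SYT11 stands lowest on the gamma_ON arrays, STMN2 and ZIC1 on both kinds of H2A.X arrays, and NPTX1 stands highest on the gamma_OFF arrays.

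Among the neuronal products, SYT11, which encodes a synaptotagmin of vesicle traffic, had log2 levels of 7.94 and 8.00 in gamma_ON, 8.97 and 8.89 in gamma_OFF, and 9.12 and 9.08 in CTRL. The gamma_ON arrays lay about 1 log2 unit under all the others, and the gamma_OFF arrays lay just under CTRL without overlap. Its log2 fold change in gamma_ON against CTRL was -1.13 (SE 0.11, 95% interval -1.38 to -0.87, limma adjusted p = 0.00209). The call held whichever of the 6 arrays was left out, with a highest limma adjusted p of 0.0432. STMN2, which encodes stathmin-2, a microtubule regulator of growing axons, had log2 levels of 7.73 and 7.55 in gamma_ON, 7.50 and 7.43 in gamma_OFF, and 8.47 and 8.58 in CTRL. Both CTRL arrays lay above all arrays with an H2A.X vector. STMN2 fell by 0.88 in gamma_ON (SE 0.12, limma adjusted p = 0.0101). Its limma adjusted p was 0.0596 and 0.127 with CTRL replicates 1 and 2 left out, and 0.0678 and 0.113 with gamma_ON replicates 1 and 2 left out.

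DCX and MAP2 had negative differences in gamma_ON that did not pass the test. DCX, which encodes the microtubule protein doublecortin of young neurons, had log2 levels of 6.02 and 6.34 in gamma_ON, 6.91 and 6.87 in gamma_OFF, and 6.95 and 6.61 in CTRL, a difference of -0.60 in gamma_ON against CTRL (SE 0.16, limma adjusted p = 0.106). MAP2, a dendritic microtubule protein gene, had 7.56 and 7.37 in gamma_ON, 7.54 and 7.67 in gamma_OFF, and 8.15 and 7.89 in CTRL, a difference of -0.56 in gamma_ON (SE 0.14, limma adjusted p = 0.0911). For both genes the gamma_ON arrays lay below the CTRL arrays. With array weights both were called lower, with limma adjusted p-values of 0.0428 for DCX and 0.0313 for MAP2, and MAP2 also with dim genes left out (0.0484). Of the 9 neurogenesis and neuronal members, 2 were called lower (22.2%, against 0.806% of all genes) and 7 were not called, with a median of -0.20.

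Among the neural progenitor members, ZIC1, a zinc finger factor of the neural plate and its border, had log2 levels of 6.49 and 6.36 in gamma_ON, 6.45 and 6.35 in gamma_OFF, and 7.19 and 6.95 in CTRL. The arrays of the 2 H2A.X vectors overlapped each other and lay below both CTRL arrays. ZIC1 fell by 0.64 in gamma_ON (SE 0.13, limma adjusted p = 0.0488). With CTRL replicate 1 or 2 left out the limma adjusted p was 0.32 or 0.156, with gamma_ON replicate 1 or 2 left out it was 0.23 or 0.268, and the call was also lost with quantile normalization, with a rescaled signal range and with every named row tested. NES had log2 levels of 9.61 and 9.52 in gamma_ON, 9.55 and 9.80 in gamma_OFF, and 10.13 and 10.21 in CTRL, and its difference of -0.61 in gamma_ON (SE 0.13, limma adjusted p = 0.0567) missed the threshold. Both CTRL arrays lay above all others for NES as well. NES was called lower in gamma_ON with array weights (limma adjusted p = 0.0123), with dim genes left out (0.0269), with a trended variance (0.0266, and 0.0290 with the robust one) and in the fit of only the 2 groups or without either gamma_OFF array (0.0298). The other 6 progenitor members, SOX1, SOX3, POU3F1, POU3F2, HES5 and ZBTB16, were not called, with values between -0.26 for POU3F2 and 0.19 for ZBTB16.

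Of the 10 anterior neural plate and eye field factors, 0 were called in gamma_ON against CTRL by limma. At an unadjusted p under 0.05, 1 was higher and 3 were lower, against 14.8% of all genes in either direction. LHX5, a LIM homeobox gene of the forebrain, had log2 levels of 6.71 and 6.50 in gamma_ON, 6.68 and 7.06 in gamma_OFF, and 7.31 and 7.08 in CTRL, a difference of -0.59 in gamma_ON (SE 0.16, limma adjusted p = 0.117). OTX1, a homeobox gene of forebrain and midbrain, stood at -0.52 (SE 0.14, limma adjusted p = 0.118). With array weights LHX5 and OTX1 were called lower, with limma adjusted p-values of 0.0316 and 0.0309, and OTX1 also in the fit of only the 2 groups or without either gamma_OFF array (0.0472). SP8, a zinc finger gene of the anterior forebrain and the limb bud, stood at 0.65 (SE 0.23, limma adjusted p = 0.228), in the other direction. SIX3 stood at -0.43 in gamma_ON (SE 0.11, limma adjusted p = 0.106), and both CTRL arrays lay above all others for it. PAX6, a master regulator of eye and forebrain, differed by 0.01 (95% interval -0.28 to 0.30), and OTX2 by 0.10 (95% interval -0.31 to 0.51).

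Among the crest members, EDNRB, the endothelin receptor of melanocyte and enteric precursors, had log2 levels of 5.20 and 5.37 in gamma_ON, 5.57 and 5.71 in gamma_OFF, and 5.91 and 6.12 in CTRL. The 3 groups did not overlap, with gamma_ON lowest and CTRL highest. The mean log2 level of EDNRB was 5.65, under the cut of 6 for dim genes, and the row may be background. EDNRB fell by 0.73 in gamma_ON (SE 0.13, limma adjusted p = 0.0323). With CTRL replicate 1 or 2 left out the limma adjusted p was 0.0949 or 0.293, with gamma_ON replicate 1 or 2 left out it was 0.298 or 0.134, and the call was lost with a rescaled signal range. The other crest receptors, NGFR and ERBB3, and all 7 border and crest transcription factors were not called in gamma_ON against CTRL. The factors had values between -0.29 for TFAP2B and 0.37 for MSX1.

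Markers of other cell types moved in the same comparison, in which 0.739% of all genes were called higher and 0.806% lower. Of 10 endoderm markers 5 were called higher in gamma_ON and 1 lower. The log2 of the summed level of the 10 was 13.43 to 13.53 in gamma_ON, against 11.83 to 12.19 in CTRL. AFP, APOA2, APOB, FGB and TTR were called higher and CXCR4 lower. The other markers, SOX17, FOXA2, GATA4 and GATA6, were not called, with log2 fold changes of 0.02, 0.08, 0.11 and 0.30. Of 8 measured trophoblast and amnion markers 2 were called higher, with a summed level of 10.51 to 10.57 in gamma_ON and of at most 10.11 in CTRL. Of 5 measured fibroblast markers 1 was called lower, with a log2 summed level of 10.93 to 10.94 in gamma_ON and 10.69 to 10.88 in CTRL. Their mean log2 levels overlapped, at 8.14 and 8.06 in gamma_ON and 8.15 and 7.95 in CTRL, and 3 of the 5 had negative fold changes. Of 5 measured surface ectoderm markers 0 were called by limma, also 0 at an unadjusted p under 0.05. Their summed level was 8.17 to 8.45 in gamma_ON and 8.08 to 8.13 in CTRL. The mean log2 levels of these 5 overlapped, at 5.58 and 5.87 in gamma_ON and 5.57 and 5.59 in CTRL. No marker had a value of 0 on any array, and the part of these cell types in the results above was not tested.

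**Figure D2:**
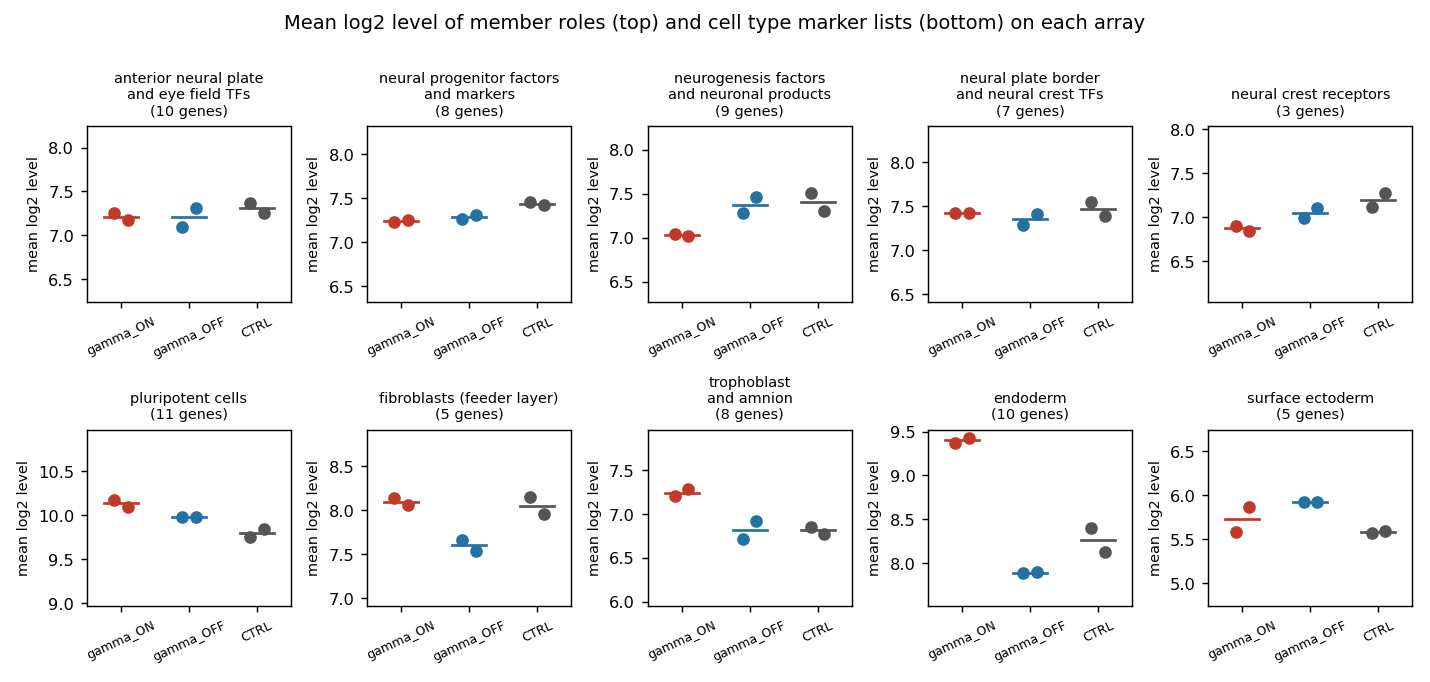
Mean log2 level on each array of the members by role (top row) and of the cell type marker lists (bottom row). Each panel is a list with its number of measured genes; points are arrays in the order of their replicate numbers, lines are means, and all panels span the same log2 range. The endoderm markers lie highest on the gamma_ON arrays and lowest on the gamma_OFF arrays, and the neuronal members lie lowest on the gamma_ON arrays.

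The comparison of gamma_OFF with CTRL asked how levels with the non-phosphorylatable H2A.X vector differed from those with eGFP alone. STMN2, ZIC1, PAX3, NES and POU3F2 fell, and NPTX1 rose. These are genes of a neuronal microtubule protein, 3 transcription factors of neural plate, crest and progenitors, an intermediate filament and a synaptic protein. Of the 37 members 13.5% were called lower, against 6.08% of all genes, and 2.7% were called higher, against 2.77% of all genes. The median log2 fold change of the members was -0.08, against 0.01 over all genes, and 16 of 37 members were above 0, against 51.9% of all genes. At an unadjusted p under 0.05 there were 12 of 37, against 30.4% of all genes, and 8.85% of all genes were called in either direction. The groups did not overlap for 6 members that were higher, against 31.1% of all genes, and for 14 that were lower, against 30.2%. The count of 6 called members was 2 without CTRL replicate 1 and 2 without CTRL replicate 2. STMN2 and ZIC1 were also called in gamma_ON, a comparison that used the same CTRL arrays.

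NPTX1, which encodes neuronal pentraxin 1, a secreted protein of excitatory synapses, had log2 levels of 6.94 and 6.81 in gamma_ON, 7.75 and 7.99 in gamma_OFF, and 6.81 and 6.71 in CTRL. Both gamma_OFF arrays lay above the other 4 arrays, which lay close together. NPTX1 rose by 1.11 in gamma_OFF (SE 0.13, 95% interval 0.81 to 1.40, limma adjusted p = 0.00453). In gamma_ON against CTRL its difference was 0.12 (95% interval -0.18 to 0.41, limma adjusted p = 0.745). STMN2 fell by 1.06 in gamma_OFF (SE 0.12, limma adjusted p = 0.00452). The calls of NPTX1 and STMN2 held whichever of the 6 arrays was left out, with a highest limma adjusted p of 0.0369 for each. SYT11 stood at -0.17 in gamma_OFF (95% interval -0.42 to 0.09, limma adjusted p = 0.341).

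ZIC1 fell by 0.67 in gamma_OFF (SE 0.13, limma adjusted p = 0.0201), and its limma adjusted p was 0.141 or 0.0694 with CTRL replicate 1 or 2 left out and 0.0711 with gamma_OFF replicate 2 left out. NES fell by 0.49 (SE 0.13, limma adjusted p = 0.0471). POU3F2, the gene of the neural POU factor BRN2, had log2 levels of 7.40 and 7.40 in gamma_ON, 7.06 and 7.30 in gamma_OFF, and 7.71 and 7.63 in CTRL, and fell by 0.48 in gamma_OFF (SE 0.13, limma adjusted p = 0.0473). The 3 groups did not overlap for POU3F2, with gamma_OFF lowest. The calls of NES and POU3F2 lay at the threshold: without CTRL replicate 1 their limma adjusted p-values were 0.166 and 0.214, without CTRL replicate 2 they were 0.243 and 0.185, without gamma_OFF replicate 1 they were 0.0632 and 0.0618, and without either gamma_ON array they were 0.0822 and 0.0841. Both calls were also lost with array weights, in the fit of only the 2 groups, with every named row tested and with either rescaling of the arrays.

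PAX3, a paired box factor of the neural plate border, crest and somites, had log2 levels of 6.68 and 6.66 in gamma_ON, 6.15 and 6.27 in gamma_OFF, and 6.98 and 6.76 in CTRL. The gamma_OFF arrays lay below all others. PAX3 fell by 0.66 in gamma_OFF (SE 0.12, limma adjusted p = 0.0189), and its limma adjusted p was 0.136 without CTRL replicate 1 and 0.069 without CTRL replicate 2. Its paralog PAX7 stood at 0.21 (limma adjusted p = 0.26). The other 5 border and crest transcription factors and all 3 crest receptors were not called, with EDNRB at -0.37 (SE 0.13, limma adjusted p = 0.1). Of the 10 anterior factors 0 were called by limma. At an unadjusted p under 0.05, 1 was higher and 2 were lower, against 30.4% of all genes in either direction. HESX1, a homeobox gene of the anterior plate and pituitary, stood at 0.43 (limma adjusted p = 0.0606), SIX3, a gene of the anterior forebrain and eye, at -0.38 (limma adjusted p = 0.0645), and SP8 at -0.66 (limma adjusted p = 0.1).

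The same marker lists moved differently in gamma_OFF against CTRL, where 2.77% of all genes were called higher and 6.08% lower. Of 10 endoderm markers 1 was called higher and 4 lower, with a log2 summed level of 11.40 to 11.43 in gamma_OFF and 11.83 to 12.19 in CTRL. Of 5 fibroblast markers 2 were called lower, with 10.26 to 10.39 in gamma_OFF and 10.69 to 10.88 in CTRL. Of 8 trophoblast and amnion markers 1 was called lower, with 9.85 to 10.06 in gamma_OFF and at most 10.11 in CTRL, and of 5 surface ectoderm markers 1 was called higher, with 8.33 to 8.41 in gamma_OFF and 8.08 to 8.13 in CTRL. The part of these cell types in the gamma_OFF results was not tested.

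**Figure D3:**
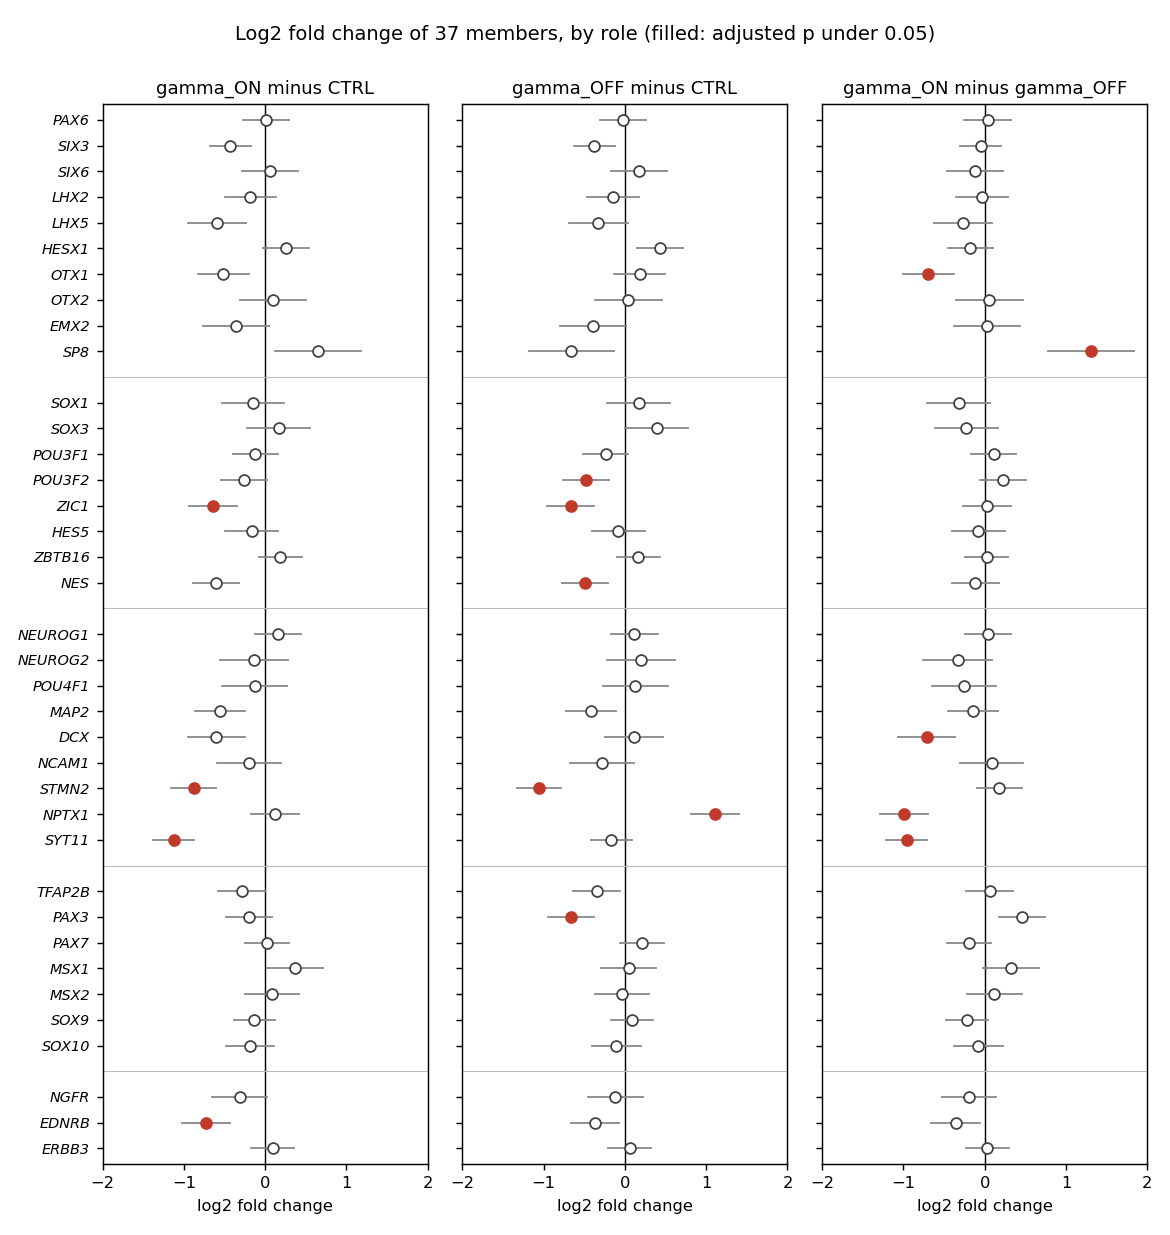
Log2 fold changes of the 37 measured members in the 3 comparisons, in blocks by role from the top: anterior neural plate, neural progenitor, neurogenesis and neuronal, border and crest factors, crest receptors. Points are limma estimates, lines are 95% intervals, and filled points passed an adjusted p under 0.05. The first comparison has 4 called members, all negative, the second 6 and the third 5.

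The direct comparison of gamma_ON with gamma_OFF asked where the 2 H2A.X vectors differed. Its fold changes did not use the CTRL levels, while its SEs and p-values used the spread of all 6 arrays. SP8 was higher in gamma_ON, and SYT11, NPTX1, OTX1 and DCX were lower. Of the 37 members 10.8% were called lower, against 2.02% of all genes, and 2.7% were called higher, against 3.98% of all genes. The median log2 fold change of the members was -0.08, against 0.02 over all genes, and 16 of 37 were above 0, against 52.9%. At an unadjusted p under 0.05 there were 7 of 37, against 33.0% of all genes, and 5.99% of all genes were called in either direction. The groups did not overlap for 7 members that were higher, against 35.8% of all genes, and for 11 that were lower, against 27.6%. With quantile normalization 2 members were called higher and 3 lower. The count of 5 called members was 0 without gamma_ON replicate 1 (limma, with 6 members at an unadjusted p under 0.05), 1 without gamma_ON replicate 2 and 3 without gamma_OFF replicate 2 or either CTRL array.

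SP8 had log2 levels of 8.49 and 8.26 in gamma_ON, 6.74 and 7.38 in gamma_OFF, and 8.00 and 7.44 in CTRL. Both gamma_ON arrays lay above CTRL and both gamma_OFF arrays below it, while the replicates of gamma_OFF differed by 0.64 and those of CTRL by 0.56. The SP8 difference of gamma_ON from gamma_OFF was 1.31 (SE 0.23, 95% interval 0.78 to 1.84, limma adjusted p = 0.0236), which is 2.48-fold. Its limma adjusted p was 0.222 without gamma_ON replicate 1 and 0.081 without gamma_ON replicate 2. OTX1 had log2 levels of 6.37 and 6.33 in gamma_ON, 6.88 and 7.21 in gamma_OFF, and 6.78 and 6.95 in CTRL. Gamma_ON lay lowest on both arrays, and OTX1 was lower in gamma_ON than in gamma_OFF by a log2 fold change of -0.70 (SE 0.14, limma adjusted p = 0.0346). Without gamma_ON replicate 1 the limma adjusted p of OTX1 was 0.243, without gamma_ON replicate 2 it was 0.11, without gamma_OFF replicate 2 it was 0.104, and without either CTRL array it was 0.0606, and the call was lost with array weights and in the fit of only the 2 groups.

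The 3 neuronal members that separated the vectors lay lower in gamma_ON. SYT11 differed by -0.96 (SE 0.11, limma adjusted p = 0.00406, and 0.066 without gamma_ON replicate 1) and NPTX1 by -0.99 (SE 0.13, limma adjusted p = 0.0071). NPTX1 had a limma adjusted p of 0.066 or 0.0686 with gamma_ON replicate 1 or 2 left out. The 2 genes reached this gap from different sides, since SYT11 was low in gamma_ON and NPTX1 was high in gamma_OFF. DCX differed by -0.71 (SE 0.16, limma adjusted p = 0.0424). Its limma adjusted p was 0.292 without gamma_ON replicate 1, 0.081 without gamma_ON replicate 2, 0.119 without gamma_OFF replicate 2 and 0.0553 without either CTRL array, and the call was also lost with array weights, in the fit of only the 2 groups and with either rescaling of the arrays. STMN2 and ZIC1 did not separate the vectors, with differences of 0.18 (95% interval -0.10 to 0.45, limma adjusted p = 0.324) and 0.03 (95% interval -0.27 to 0.32, limma adjusted p = 0.897). Of 8 progenitor members, 7 border and crest factors and 3 crest receptors, 0 were called between the vectors by limma. At an unadjusted p under 0.05 there were 0, 1 and 1 of them, against 33.0% of all genes. PAX3 stood at 0.46 (SE 0.12, limma adjusted p = 0.0585). In this comparison 6 of 10 endoderm markers, 4 of 8 trophoblast and amnion markers and 2 of 5 fibroblast markers were called higher in gamma_ON. Of all genes 3.98% were, and the part of these cell types in the result was not tested.

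**Figure D4:**
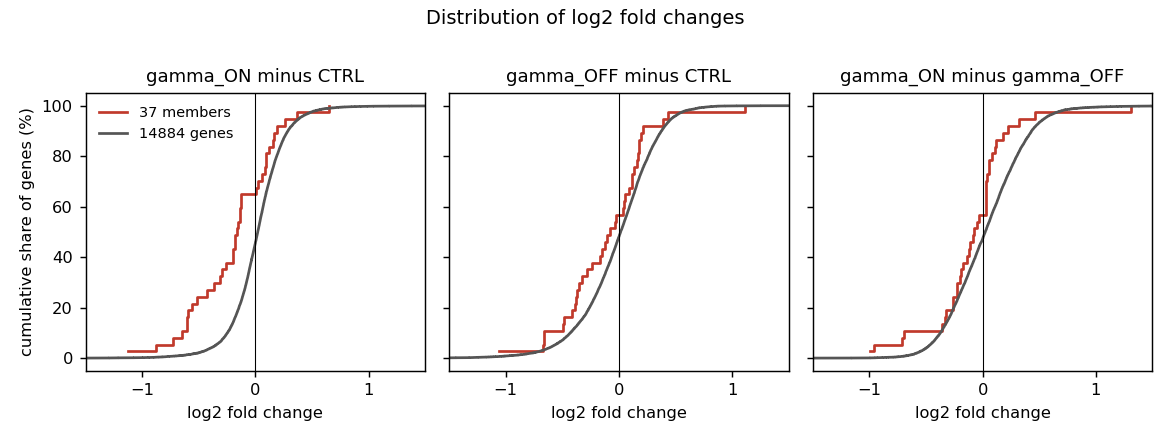
Cumulative share of genes (percent, vertical axis) by log2 fold change (horizontal axis) for the 37 members in red and all 14884 genes in grey, in the 3 comparisons. In gamma_ON minus CTRL the members' curve runs left of that of all genes, with a median of -0.16 against 0.02.

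In all, 11 of the 37 members were called in at least 1 comparison and 26 in none. Of those 26, LHX5 and MAP2 reached a difference of 0.5 without overlap of the groups and were given above. The other 24 stayed between -0.43 and 0.37 in gamma_ON against CTRL, between -0.39 and 0.43 in gamma_OFF against CTRL, and between -0.34 and 0.32 between the vectors. They were the anterior factors PAX6, SIX3, SIX6, LHX2, HESX1, OTX2 and EMX2, the progenitor genes SOX1, SOX3, POU3F1, HES5 and ZBTB16, the neurogenesis genes NEUROG1, NEUROG2, POU4F1 and NCAM1, the border and crest factors TFAP2B, PAX7, MSX1, MSX2, SOX9 and SOX10, and the receptors NGFR and ERBB3. Their lowest limma adjusted p was 0.106 in gamma_ON against CTRL, 0.0606 in gamma_OFF against CTRL and 0.167 between the vectors. SOX10, the defining factor of crest, had log2 levels of 7.78 and 7.89 in gamma_ON, 7.77 and 8.06 in gamma_OFF, and 8.03 and 8.01 in CTRL, and SOX1, an early neural plate factor, had 6.62 and 6.90 in gamma_ON, 6.90 and 7.27 in gamma_OFF, and 7.07 and 6.76 in CTRL. The groups overlapped for SOX1 in both comparisons with CTRL.

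The replicates of a group differed over the members as follows. The median absolute difference between replicates was 0.11 in gamma_ON, 0.19 in gamma_OFF and 0.18 in CTRL, against 0.12, 0.18 and 0.11 over all genes. A difference over 0.5 occurred in 0 members in gamma_ON, 5 in gamma_OFF and 2 in CTRL, and it was widest for SP8 in gamma_OFF and in CTRL. Gamma_OFF replicate 2 was the higher array in 28 of 37 members (75.7%), against 50.5% of all genes. CTRL replicate 2 was the higher array in 11 of 37 (29.7%), against 49.4% of all genes. So the replicates of CTRL also differed over the members in 1 direction more often than over all genes, with replicate 1 above replicate 2 in 26 of 37.

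Of 85 further genes listed for neural plate, hindbrain, Notch signalling, neurons and crest, 61 were measured. This list too was chosen with earlier results of these data known, so its shares are no test of it. In gamma_ON against CTRL, LIX1 and SYT4 were called higher (3.28%, against 0.739% of all genes) and DCC lower (1.64%, against 0.806%). LIX1, a gene of the embryonic forebrain in chick and mouse, had log2 levels of 7.98 and 8.02 in gamma_ON, 6.88 and 6.82 in gamma_OFF, and 7.40 and 7.12 in CTRL. It rose by 0.74 in gamma_ON (SE 0.13, limma adjusted p = 0.0289) and was 1.15 higher in gamma_ON than in gamma_OFF (SE 0.13, limma adjusted p = 0.00331). The LIX1 call between the vectors held whichever array was left out, while that against CTRL had a limma adjusted p of 0.0596 or 0.276 with CTRL replicate 1 or 2 left out and of 0.202 or 0.183 with gamma_ON replicate 1 or 2 left out, and was lost with quantile normalization. SYT4, a paralog of SYT11, had log2 levels of 8.01 and 7.85 in gamma_ON, 7.39 and 7.34 in gamma_OFF, and 6.82 and 6.71 in CTRL, without overlap among the 3 groups. SYT4 rose by 1.16 in gamma_ON (SE 0.12, limma adjusted p = 0.00258), a call that held whichever array was left out, while SYT11 fell there. SYT4 also rose by 0.60 in gamma_OFF (SE 0.12, limma adjusted p = 0.0235), with 0.101 or 0.165 when CTRL replicate 1 or 2 was left out and 0.0574 when gamma_OFF replicate 2 was.

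DCC, a netrin receptor gene of growing axons, fell with both H2A.X vectors. It had log2 levels of 6.63 and 6.71 in gamma_ON, 7.04 and 6.96 in gamma_OFF, and 8.37 and 7.83 in CTRL, so that both CTRL arrays lay above all others. DCC fell by 1.43 in gamma_ON (SE 0.17, limma adjusted p = 0.0046, and 0.0717 or 0.0568 with gamma_ON replicate 1 or 2 left out). It fell by 1.10 in gamma_OFF (SE 0.17, limma adjusted p = 0.00967, and 0.0512 or 0.0517 with CTRL replicate 1 or gamma_OFF replicate 2 left out), a comparison with the same CTRL arrays.

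In gamma_OFF against CTRL, 4 of these 61 genes were called higher (6.56%, against 2.77% of all genes) and 7 lower (11.5%, against 6.08% of all genes). CNTN1, the gene of the axonal adhesion protein contactin-1, had log2 levels of 7.67 and 7.61 in gamma_ON, 8.47 and 7.97 in gamma_OFF, and 6.89 and 7.04 in CTRL, without overlap among the groups. CNTN1 rose by 1.26 in gamma_OFF (SE 0.16, limma adjusted p = 0.00653), a call that held whichever array was left out. The Notch receptor gene NOTCH1 and the ligand genes JAG1 and DLL3 fell by 0.67, 0.64 and 0.66, with limma adjusted p-values of 0.0301, 0.0239 and 0.0161. JAG1 had log2 levels of 9.28 and 9.14 in gamma_ON, 8.90 and 8.63 in gamma_OFF, and 9.40 and 9.42 in CTRL. HES5, a Notch target among the members, stood at -0.08 (limma adjusted p = 0.724). DLL1, another gene of the progenitor and Notch list, stood at -0.60 (limma adjusted p = 0.0517) and was not called. Of the 14 measured genes of that list 9 had negative and 5 positive differences in gamma_OFF. Whether Notch signalling changed was not tested. Without CTRL replicate 1 the limma adjusted p-values of NOTCH1, JAG1 and DLL3 were 0.0934, 0.123 and 0.0901, and without CTRL replicate 2 they were 0.188, 0.143 and 0.123. Without gamma_OFF replicate 2 JAG1 had 0.0777 and DLL3 0.0549, and without either gamma_ON array NOTCH1 had 0.0605. The NOTCH1 call was also lost in the fit of only the 2 groups and with either rescaling of the arrays. In gamma_ON against CTRL, NOTCH1, JAG1 and DLL3 stood at -0.57, -0.20 and -0.22, with limma adjusted p-values of 0.104, 0.529 and 0.441. NOTCH1 differed by 0.10 between the vectors (limma adjusted p = 0.643).

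Among the anterior genes of this list, FEZF1 and FEZF2, zinc finger genes of the forebrain, went opposite ways in gamma_OFF. FEZF1 had log2 levels of 9.19 and 8.96 in gamma_ON, 9.96 and 10.07 in gamma_OFF, and 9.46 and 9.54 in CTRL, and rose by 0.51 in gamma_OFF (SE 0.13, limma adjusted p = 0.0415). FEZF2 fell by 0.52 (SE 0.14, limma adjusted p = 0.0482). FEZF1 was also lower in gamma_ON than in gamma_OFF, by -0.94 (SE 0.13, limma adjusted p = 0.00784, and 0.0711 without gamma_ON replicate 2). Against CTRL, FEZF1 and FEZF2 had limma adjusted p-values of 0.194 and 0.24 without CTRL replicate 1, 0.174 and 0.14 without CTRL replicate 2, 0.115 and 0.146 without gamma_OFF replicate 2, and 0.0644 and 0.0748 without either gamma_ON array. Both calls were also lost with array weights and in the fit of only the 2 groups. The FEZF2 call was lost too with every named row tested and with either rescaling of the arrays. In gamma_ON against CTRL, FEZF1 and FEZF2 stood at -0.43 and -0.42, with limma adjusted p-values of 0.149 and 0.189. MEIS2, a homeobox gene of forebrain and other tissues, had log2 levels of 7.64 and 7.57 in gamma_ON, 6.87 and 6.93 in gamma_OFF, and 8.14 and 7.63 in CTRL, with gamma_OFF below all others. MEIS2 fell by 0.99 in gamma_OFF (limma adjusted p = 0.0125, and 0.0739 or 0.0522 with CTRL replicate 1 or gamma_OFF replicate 2 left out). EN1, a homeobox gene of the midbrain and hindbrain border, had 5.25 and 5.49 in gamma_ON, 5.78 and 6.15 in gamma_OFF, and 5.25 and 5.28 in CTRL. The mean log2 level of EN1 was 5.54, under the cut of 6 for dim genes, and the row may be background. EN1 rose by 0.71 in gamma_OFF (limma adjusted p = 0.0287), with 0.136 or 0.143 when CTRL replicate 1 or 2 was left out and 0.0934 when gamma_OFF replicate 2 was. SNAI2, the crest and mesenchyme repressor Slug, had log2 levels of 9.66 and 9.64 in gamma_ON, 8.71 and 8.57 in gamma_OFF, and 9.94 and 9.48 in CTRL. SNAI2 fell by 1.07 in gamma_OFF (SE 0.16, limma adjusted p = 0.00851, and 0.052 without CTRL replicate 1), and the gamma_OFF arrays lay below all others. Of the 5 fibroblast markers 2 were called lower in the same comparison, and their part in this result was not tested.

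Between the vectors 4 of the 61 genes were called higher in gamma_ON, against 3.98% of all genes, and 1 lower, against 2.02%. LIX1, SNAI2, MEIS2 and SYT4 were higher and FEZF1 was lower. SNAI2 differed by 1.01 (limma adjusted p = 0.0146, and 0.153, 0.0804 or 0.0826 with gamma_ON replicate 1, gamma_ON replicate 2 or gamma_OFF replicate 2 left out). MEIS2 differed by 0.70 (limma adjusted p = 0.0455, and 0.29, 0.114 or 0.127 with the same arrays left out), and SYT4 by 0.57 (limma adjusted p = 0.0391, and 0.288, 0.101 or 0.108). SYT4 also had 0.0725 without either CTRL array. The calls of MEIS2 and SYT4 were lost with array weights and with either rescaling of the arrays, that of MEIS2 with every named row tested and that of SYT4 in the fit of only the 2 groups.

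**Figure D5:**
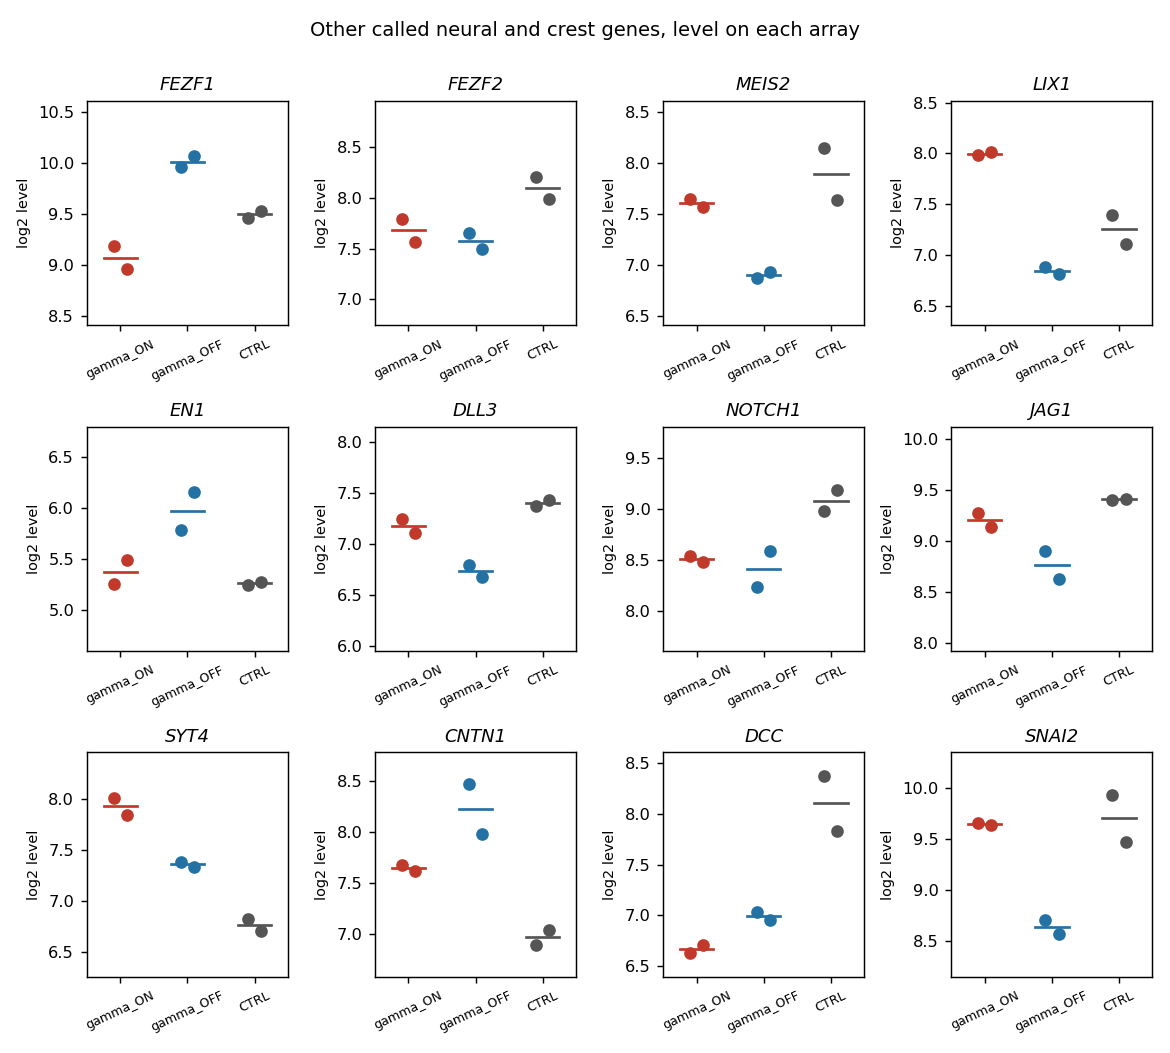
Log2 level on each array of the 12 called genes among the 61 further neural and crest genes. Points are arrays in the order of their replicate numbers, lines are means of 2 arrays, and all panels span the same log2 range. LIX1 and SNAI2 stand lowest on the gamma_OFF arrays and SYT4 stands highest on the gamma_ON arrays.

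Among the called members SYT11 and NES share chromosome 1, and OTX1 and PAX3 share chromosome 2. The 3 nearest measured protein-coding genes on each side of a called member made 66 genes. Of these, 0 were called in gamma_ON against CTRL by limma, against 1.55% of all genes. An unadjusted p under 0.05 was reached by 11 of them, against 14.8% of all genes. In gamma_OFF against CTRL 7 of the 66 were called (10.6%), against 8.85% of all genes, and between the vectors 5 were called (7.58%), against 5.99%.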

How the data were processed

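Total RNA of 6 samples was hybridised to Affymetrix human gene arrays, 1 per sample. Each deposited value is a log2 level of 1 array row. The submitters' processing notes name RMA and Partek 6.6, while build and options are not stated in the labels. The log2 scale was read from the values. Of 53617 rows, the platform annotation named 16098 with 1 gene symbol, 0 with several, and 37519 were unnamed here; all 16098 identifiers matched the RefSeq table (GRCh38.p14). The brightest row per gene was kept, by the mean over the 6 arrays, for 14884 genes. Among the members only LHX2 had a second row.

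Groups were compared with limma 3.58.1 in R 4.3.3 (lmFit and eBayes, 1 fit over 6 arrays, 3 residual and 6.05 prior degrees of freedom), with Benjamini-Hochberg adjustment over all genes. The scripts were tested on simulated data. Alternatives varied the spread model, arrays, filters, scaling and threshold. With 1 array of a group left out, the lone array was assumed to vary like the other groups. With 2 arrays against 2, the smallest p of an exact permutation test is 0.333, and no such test was run. Members and lists were chosen with earlier results of these data known. Values are given for called members, and for uncalled ones at a difference of 0.5 or more without overlap; other genes shown at a difference under that were chosen after their values were seen. The number of arrays limits the precision.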

Additional observations from a re-analysis of the deposited data

How the results depend on the processing

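No called member changed direction under any of the alternatives run. Apart from the rescalings of the arrays and the fits with an array left out, the alternatives kept the fold changes and could not change a direction. The threshold of 0.10 could not end a call. Leaving out 1 array of the group not compared gave the same result as the fit of only the 2 groups. NPTX1 and STMN2 in gamma_OFF and SYT11 in gamma_ON against CTRL were called under all 10 alternatives and with each of the 6 arrays left out. The count of called members was 4 in gamma_ON against CTRL, and became 10 with array weights and 2 with a rescaled signal range. Between the vectors it was 5, and became 3 with array weights and 3 in the fit of only the 2 groups. With 1 array left out it ranged from 1 to 6 in gamma_ON against CTRL, from 2 to 6 in gamma_OFF against CTRL (6 with all arrays), and from 0 to 7 between the vectors.

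Over all genes, 230 were called in gamma_ON against CTRL, 1317 in gamma_OFF against CTRL and 892 between the vectors. With 1 array left out these counts ranged from 34 to 487, from 131 to 3515 and from 49 to 4061. With array weights they were 803, 767 and 229, in fits of only the 2 groups 487, 567 and 275, and at a threshold of 0.10 they were 508, 2941 and 3121. In gamma_ON against CTRL the count was 381 with dim genes left out, 386 with a trended variance and 381 with a robust trended one. Between the vectors these were 1871, 1628 and 1596, with 469 after quantile normalization and 443 with a rescaled signal range. The causes of these moves were not tested.

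The groups share replicate numbers, but the labels tie them to no batch or day, and the deviations of same-numbered arrays correlated at -0.10 (gamma_ON and CTRL), -0.07 (gamma_OFF and CTRL) and 0.09 (gamma_ON and gamma_OFF). With the replicate number as a block, 4 members were called in gamma_ON against CTRL, 4 in gamma_OFF against CTRL and 5 between the vectors, and 210, 1245 and 871 genes in all. The block ended the calls of NES, POU3F2 and FEZF1 in gamma_OFF against CTRL. The dim filter (mean log2 level under 6) left 36 of 37 members, without EDNRB. Among the further genes called it took out EN1. No signal over background was given, so what dim rows limit could not be measured.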

Other observations

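LHX2, a LIM homeobox gene of the eye field and forebrain, was the only member with a second named row. Its brighter row differed by -0.18 in gamma_ON and -0.15 in gamma_OFF against CTRL, while its dimmer row differed by 0.13 and 0.40, so the rows of LHX2 disagree in direction. The dimmer row had log2 levels of 5.22 and 5.46 in gamma_ON, 5.71 and 5.52 in gamma_OFF, and 5.31 and 5.12 in CTRL. The neighbours of a called member that were themselves called in gamma_OFF included 3 of 6 around POU3F2 on chromosome 6 and 2 of 6 around SYT11 on chromosome 1, chosen after their values were seen. SYT11 itself was not called in gamma_OFF against CTRL (log2 fold change -0.17, limma adjusted p = 0.341). Over all 66 neighbours the share called there was 10.6%, against 8.85% of all genes.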
